A study of Homo sapiens with 24 samples.

Results

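The higher dose of the prodrug G669071, called phos here after the sample titles, was compared with the higher doses of decitabine (DAC) and of the prodrug G668684, called ester, in HCT116 cells, a human line grown from a colorectal cancer. The comparison was defined by the labels alone and set 2 arrays of phos against 4 of DAC and ester pooled, 6 of the 24 in the series. All 24 arrays entered the fit, and the spread was estimated from all of them together. All cells were treated for 72 h, and their RNA was measured on Affymetrix HG-U133 Plus 2.0 arrays. DAC was given at 5 µM and ester at 7 µM. The phos titles state 63 µM, whereas their source names state 120 nM, so the doses are unlike and that of phos is not settled. Other arrays served as reference points: 4 with the solvent DMSO, 2 with DAC at 120 nM, 2 with ester at 150 nM, and 2 with the lower dose of phos, given as 6 µM in the titles and 6 nM in the source names. The labels name no genetic difference between the groups. Nothing in the labels ties replicates to separate cultures, so the p-values measure the spread between arrays, which may be technical.

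DAC is a cytidine analogue that cells phosphorylate and build into new DNA, where it traps DNA methyltransferases. Cells that divide with the enzyme trapped pass on less methylated DNA, and germ line genes held silent by promoter methylation come on. The trapped enzyme is also a DNA lesion, and in cells with working p53, such as HCT116, it is known to switch on p53 target genes and to slow division. How phos and ester are converted is not given in the labels, and no structure is assumed for either.

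The 6 arrays were alike as a whole. Correlations over genes ran from 0.9948 to 0.9981 between pairs of them, and their medians lay between 6.49 and 6.52 on the log2 scale of RMA intensity, on which all levels here are given. The epithelial genes EPCAM, KRT8 and KRT18 stood between 12.76 and 12.93, between 12.25 and 12.47 and between 13.89 and 13.98 on the 6 arrays. They were picked from a list of 22 colon epithelial markers and do not by themselves show a colorectal origin. The signal of beta-actin probes at the 3' end minus that at the 5' end, a sign of RNA quality, was 0.04 and 0.05 on the phos arrays, 0.10 and 0.12 with DAC and 0.14 and 0.03 with ester.

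Of 18055 genes tested, 262 (1.45%) differed between phos and the pooled DAC and ester arrays at a limma adjusted p under 0.05. Phos was higher for 64 genes (0.354%) and lower for 198 (1.1%). The differences were small: 49 of the 64 and 167 of the 198 were under 1.5-fold, the medians were 0.45 and -0.39 log2 units, and only betacellulin (BTC) and MAMDC2 passed 2-fold, both lower with phos. For all 262 genes both phos arrays lay outside the range of the 4 others. Over all genes tested, 10.9% had both phos arrays above and 14.9% both below that range. The middle gene had a 95% interval of ±0.21, so shifts smaller than that could mostly not be told from 0. The counts depended on single arrays: 20 genes were called without phos replicate 1, 78 without phos replicate 2, 148 and 121 without DAC replicates 1 and 2, and 140 without ester replicate 1. Without ester replicate 2 the number higher with phos was 167 and the number lower 186. The plot of all genes shows the shape of the difference.

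**Figure D1:**
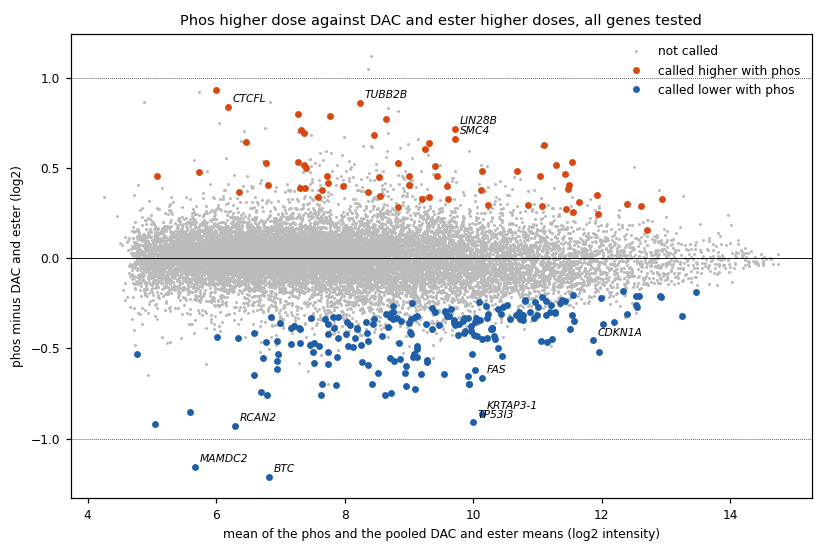
Difference between phos and the pooled DAC and ester arrays (log2) against the average level (log2 intensity) for the 18055 genes tested, 1 point per gene, with the 64 genes called higher and the 198 called lower coloured; dotted lines mark 2-fold. Called genes lie at all levels, more of them below 0 than above, and 2 of them, BTC and MAMDC2, pass the lower dotted line.

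Promoters of 4 called genes are printed to show their CpGs, the sites whose methylation DAC lowers. They are the 250 bases before the start of the gene, from RefSeq on GRCh38.p14, 5′ to 3′ on the gene's strand, with each CpG in capitals. GCNA (chrX:71578187-71578436, plus strand) and LIN28B (chr6:104940715-104940964, plus strand) were higher with phos, and held 18 and 33 CpGs. TP53I3 (chr2:24084835-24085084, minus strand) and KRTAP3-1 (chr17:41009129-41009378, minus strand) were lower with phos, and held 6 and 1. These 4 do not stand for the 2 sets of genes, whose medians were close. In the whole RefSeq window, which also holds the first bases of the gene, the median was 27 CpGs over the 54 genes called higher that have one, and 24 over the 165 called lower. For 10 of the 11 called p53 targets it was 28.5. Methylation was not measured.
GCNA: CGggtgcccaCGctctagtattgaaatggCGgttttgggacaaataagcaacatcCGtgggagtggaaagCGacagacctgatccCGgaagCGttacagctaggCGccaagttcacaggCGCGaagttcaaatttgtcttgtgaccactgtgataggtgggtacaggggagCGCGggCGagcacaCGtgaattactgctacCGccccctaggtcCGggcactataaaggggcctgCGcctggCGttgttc
LIN28B: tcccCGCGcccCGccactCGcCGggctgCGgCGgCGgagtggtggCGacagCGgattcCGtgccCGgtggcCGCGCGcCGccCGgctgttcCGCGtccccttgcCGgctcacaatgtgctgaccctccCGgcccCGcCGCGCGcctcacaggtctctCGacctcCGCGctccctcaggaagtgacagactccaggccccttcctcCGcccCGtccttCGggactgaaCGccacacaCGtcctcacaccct
TP53I3: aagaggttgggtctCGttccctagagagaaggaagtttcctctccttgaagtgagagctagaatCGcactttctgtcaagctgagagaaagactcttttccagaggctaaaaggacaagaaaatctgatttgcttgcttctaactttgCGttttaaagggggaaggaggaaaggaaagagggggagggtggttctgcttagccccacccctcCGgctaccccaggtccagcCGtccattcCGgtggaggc
KRTAP3-1: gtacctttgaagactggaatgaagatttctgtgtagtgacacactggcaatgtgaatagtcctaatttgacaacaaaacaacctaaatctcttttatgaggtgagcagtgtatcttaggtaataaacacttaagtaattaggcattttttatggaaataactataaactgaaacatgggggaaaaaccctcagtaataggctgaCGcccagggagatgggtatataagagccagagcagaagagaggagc

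Targets of p53 were the group in which the most members differed. Of 47 tested, 11 (23.4%) were lower with phos and 0 higher, against 1.1% lower over all genes, and the list's median difference was -0.18 against 0.00 over all genes. TP53I3, an oxidoreductase induced by p53, stood at 9.48 and 9.60 with phos, at 10.50 and 10.45 with DAC and at 10.41 and 10.44 with ester. Every DAC and ester array was thus above both phos arrays, by a mean of 0.91 ± 0.09 (SE; 1.88-fold, limma adjusted p = 1.49e-05). The DMSO arrays lay between 7.68 and 8.06 and the lower doses of DAC and ester between 8.88 and 9.02, so the phos arrays sat between the lower and the higher doses.

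Among the arrest genes of the list, the cyclin-dependent kinase inhibitor CDKN1A (p21) stood at 11.62 and 11.64 with phos, at 12.07 and 12.14 with DAC and at 12 and 12.13 with ester. DMSO arrays ranged from 9.97 to 10.29, and the difference between phos and the higher doses was -0.46 ± 0.07 (SE; limma adjusted p = 0.00216). Among the death genes, the receptor FAS stood at 9.69 and 9.93 with phos and between 10.45 and 10.49 on the other 4 arrays, a difference of -0.66 ± 0.10. FAS rested on a probe set of the _s_at type, which can match several transcripts; its 5 probe sets ran from -0.81 to -0.06, and the one used when such types were left out gave -0.06. TP53INP1, which takes part in autophagy and cell death, stood at 9.56 and 9.61 against 10.19 to 10.39 (-0.70 ± 0.10). Its 3 probe sets ran from -0.70 to -0.04, and their mean gave -0.27. In each of these genes the 2 groups of arrays were apart and both were above DMSO.

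The other called p53 targets had the same order, with phos between DMSO and the higher doses. They were ZMAT3, an RNA-binding protein (-0.65 ± 0.11), ACER2, a ceramidase (-0.53 ± 0.08), TRIAP1, a mitochondrial lipid-transfer protein that restrains apoptosis (-0.52 ± 0.06), SESN1, which restrains mTORC1 (-0.43 ± 0.07), DDB2, which recognises ultraviolet damage (-0.42 ± 0.07), the lysosomal fucosidase FUCA1 (-0.34 ± 0.08), and the ribosomal protein paralogue RPS27L (-0.32 ± 0.07, or -0.71 on a probe set without the _x_at or _s_at mark). TRIAP1 stood at 11.65 and 11.74 with phos, between 12.11 and 12.28 with DAC and ester, and between 11.27 and 11.41 with DMSO. Its lower-dose DAC and ester arrays, at 11.32 to 11.39, overlapped those of DMSO. By role, 2 of 10 arrest genes, 1 of 13 death genes, 3 of 9 metabolism and stress genes and 5 of 15 DNA repair and other genes were called. MDM2, the ubiquitin ligase that degrades p53, was not called (-0.49, 95% interval -0.95 to -0.03, limma adjusted p = 0.403), and neither was BAX (-0.19, -0.40 to 0.02, adjusted p = 0.542). Without phos replicate 1 only 2 of the p53 targets stayed called, TP53I3 and TRIAP1.

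**Figure D2:**
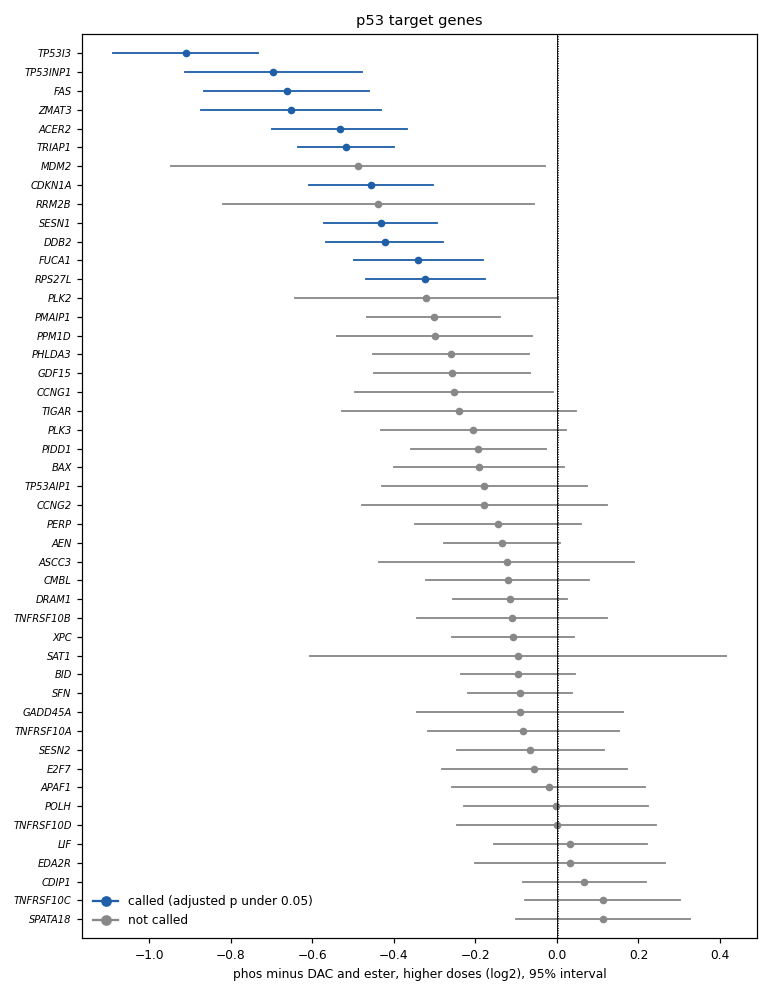
Difference between phos and the pooled DAC and ester arrays (log2, with 95% interval from limma) for the 47 p53 targets tested, sorted by size; the dotted line is the median of all genes. The 11 called members all lie below 0, from TP53I3 at -0.91 to RPS27L at -0.32, and the other intervals reach towards or across 0.

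The largest differences below 0 belonged to genes of several kinds. BTC, a ligand of the epidermal growth factor receptor, stood at 6.39 and 6.05 with phos, at 7.41 and 7.58 with DAC and at 7.25 and 7.49 with ester (-1.21 ± 0.24 SE, 2.32-fold, limma adjusted p = 0.0113). The DMSO arrays lay from 6.08 to 7.02, and the lower doses of DAC and ester from 4.53 to 5.37. BTC was therefore below DMSO at the lower doses and above it at the higher ones, and its phos arrays overlapped DMSO. Its call was lost without either phos array or DAC replicate 2. ZBED2, a zinc finger transcription factor, had a like order: 7.24 and 7.25 with phos, 7.89 to 8.18 with DAC and ester, 7.43 to 7.64 with DMSO and 6.81 to 7.03 at the lower doses (-0.76 ± 0.10).

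Other genes were nearer to DMSO on the phos arrays than on the higher-dose DAC and ester arrays. RCAN2, a regulator of the phosphatase calcineurin, stood at 5.71 and 5.95 with phos, 6.70 and 7.09 with DAC and 6.55 and 6.70 with ester, while DMSO ranged from 5.41 to 5.66 (-0.93 ± 0.10, limma adjusted p = 8.43e-05). Both phos arrays of RCAN2 were above all DMSO arrays, by a mean of 0.31 (limma adjusted p = 0.0271). MAMDC2, a secreted protein, stood at 5.16 and 5.03 with phos, inside the DMSO range of 4.93 to 5.38, and at 5.85 to 6.64 with DAC and ester (-1.16 ± 0.16, 2.23-fold). SNAI2, the transcription factor Slug that represses epithelial genes, stood at 4.62 and 4.57 with phos, inside the DMSO range of 4.46 to 4.73, and at 5.39 to 5.78 with DAC and ester (-0.92 ± 0.12). Levels around 5 are dim on these arrays, and without detection calls the sizes for MAMDC2 and SNAI2 have no sure scale. Among brighter genes, the serine protease PRSS23 stood at 8.32 and 8.39 with phos, 9 to 9.21 with DAC and ester and 7.97 to 8.10 with DMSO (-0.75 ± 0.07, adjusted p = 1.49e-05; its 4 probe sets ran from -0.93 to 0.17, and their mean gave -0.46). The arrestin relative ARRDC4 stood at 8.19 and 8.30, 8.88 to 9.25 and 7.80 to 8.03 on the same arrays (-0.76 ± 0.10). In both, the phos arrays were above all DMSO arrays, for PRSS23 by 0.32 (limma adjusted p = 0.000914) and for ARRDC4 by 0.34 (limma adjusted p = 0.0167).

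Others were above DMSO in both, by less with phos. KRTAP3-1, a hair keratin-associated protein, stood at 9.72 and 9.68 with phos, 10.47 to 10.65 with DAC and ester, 8.88 to 9.26 at their lower doses and 7.69 to 8 with DMSO (-0.86 ± 0.09, limma adjusted p = 7.11e-05). SCG5, a chaperone of neuroendocrine cells, stood at 6.33 on both phos arrays and at 6.84 to 7.26 with DAC and ester (-0.74 ± 0.17). The collagenase MMP1 stood at 5.01 and 5.32 against 5.73 to 6.49 (-0.85 ± 0.16), again at dim levels. ANKRD1, a target of the YAP pathway, stood at 6.33 and 6.48 against 7.05 to 7.28 (-0.76 ± 0.13), and its phos arrays overlapped the lower doses of DAC and ester at 6.32 to 6.76. MMP1, ARRDC4 and ANKRD1 lost their calls without phos replicate 1, and SCG5 lost its call without either phos array, either ester array or DAC replicate 2. MAMDC2, RCAN2, SNAI2, TP53I3, KRTAP3-1, ZBED2 and PRSS23 were called under every alternative that was run on them.

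**Figure D3:**
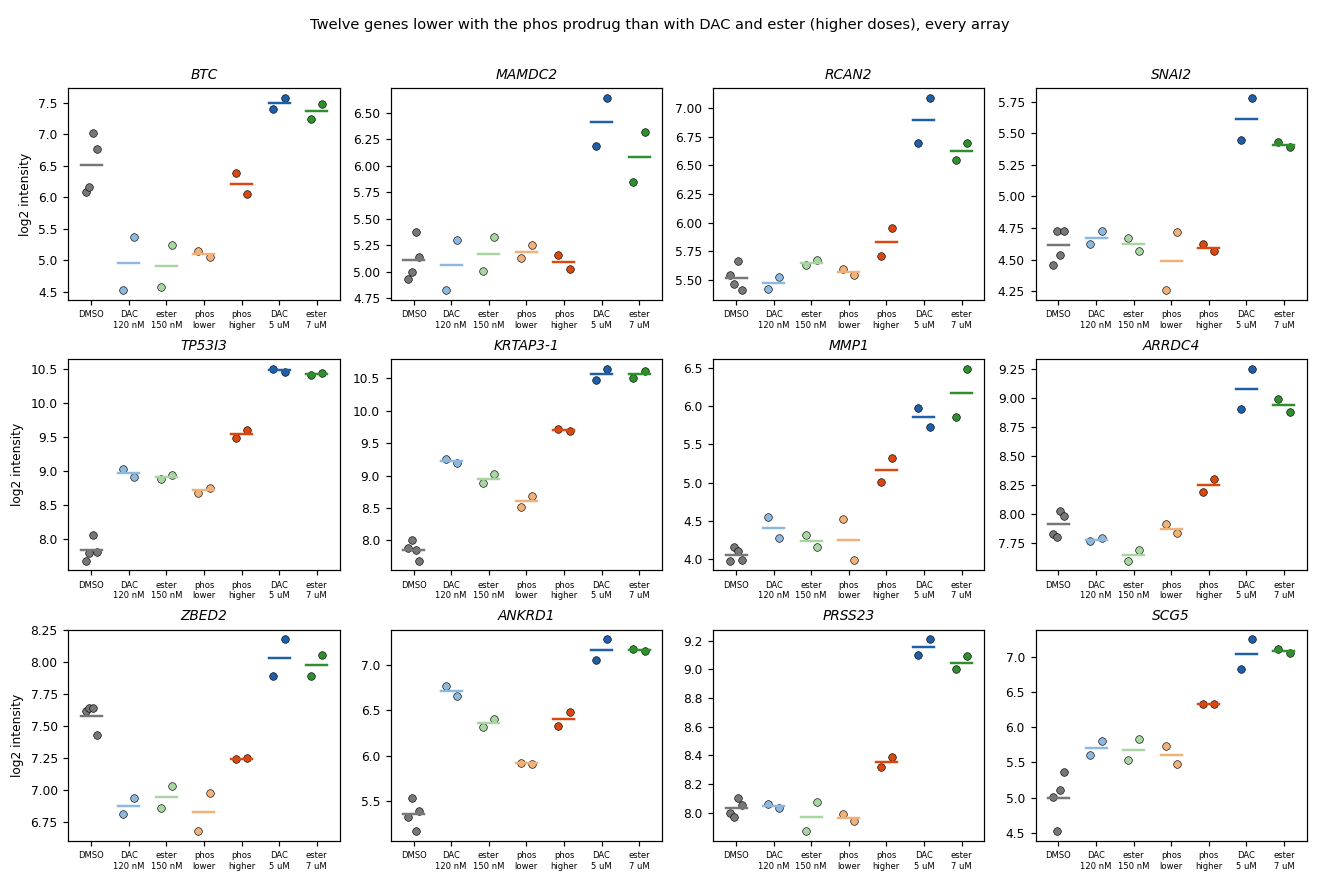
Level on each array (log2 intensity; points are arrays, lines are group means) of the 12 genes with the largest differences below 0 among those called, in DMSO, the lower doses of DAC, ester and phos, and the higher doses of phos, DAC and ester. In every panel both phos higher-dose arrays lie below the 4 DAC and ester arrays, while their place against DMSO and the lower doses varies from gene to gene.

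The kallikreins KLK6, KLK7, KLK8 and KLK10, secreted serine proteases encoded in the same gene cluster, were lower with phos. They were singled out after their values were seen. KLK10 stood at 9.66 and 9.76 with phos, 10.21 to 10.51 with DAC and ester and 8.45 to 8.63 with DMSO (-0.62 ± 0.08, limma adjusted p = 0.000408), but only -0.14 on a probe set without the _x_at or _s_at mark. KLK7 stood at 8.47 and 8.50, 8.93 to 9.19 and 8.74 to 8.90 on the same arrays (-0.57 ± 0.08). With KLK7 the phos arrays were below DMSO and the higher doses of DAC and ester above it. KLK8 (-0.53 ± 0.10) and KLK6 (-0.50 ± 0.08) overlapped DMSO on at least 1 phos array, and both lost their calls without phos replicate 1. Of the 14 kallikreins tested, 4 were called, all of them lower, against 1.1% lower over all genes. The family's median was -0.07. KLK5, a neighbour of KLK6, was just not called (-0.41, limma adjusted p = 0.0535).

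Germ line genes were higher with phos where they differed. Among 34 germ cell and meiosis genes, 3 (8.82%) were higher and 0 lower, against 0.354% higher over all genes, and the median difference was 0.15. LIN28B, which blocks let-7 microRNA maturation, stood at 10.10 and 10.06 with phos, 9.26 and 9.41 with DAC and 9.36 and 9.42 with ester (0.72 ± 0.14, 1.64-fold, limma adjusted p = 0.0095). DMSO arrays stood at 4.75 to 5.30 and the lower doses of DAC and ester at 9.86 to 10.26, so the phos arrays lay inside the lower-dose range. GCNA, a germ cell nuclear protein on the X chromosome, had the same order: 11.34 and 11.49 with phos, 10.63 to 10.94 at the higher doses, 11.29 to 11.59 at the lower doses and 4.89 to 5.47 with DMSO (0.63 ± 0.15). MAEL, a protein of the piRNA pathway, stood at 11.23 and 11.31 with phos, above the higher doses at 10.75 to 10.96 and the lower doses at 10.58 to 10.91 (0.45 ± 0.11, adjusted p = 0.0494). LIN28B, GCNA and MAEL lost their calls without either phos array. GCNA also did so without DAC replicate 1 or 2 or ester replicate 1, and MAEL whichever of the 6 arrays was left out. DAZL, which binds RNA in germ cells, was not called (0.10, 95% interval -0.29 to 0.49), with 11.21 and 11.10 against 10.88 to 11.23.

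Cancer-testis antigens, germ line genes that tumours re-express, gave 2 calls among 26 tested (7.69%), both higher with phos, against 0.354% higher over all genes, with a list median of 0.24. CTCFL (BORIS), the testis paralogue of CTCF, stood at 6.51 and 6.70 with phos, 5.73 and 5.79 with DAC, 5.70 and 5.85 with ester, 6.58 to 7.39 at the lower doses and 4.53 to 5.24 with DMSO (0.84 ± 0.18, limma adjusted p = 0.0221). PRAME, a repressor of retinoic acid signalling, stood at 9.16 and 9.26 with phos, 8.69 to 8.91 at the higher doses and 9.40 to 9.55 at the lower doses (0.41 ± 0.07). For both, the phos arrays were above the higher doses; for PRAME they were below the lower ones, and for CTCFL they overlapped them. None of the 19 members of X-linked families was called, which is near the share of 0.354% higher over all genes, and their median was 0.25. MAGEA4 stood at 11.30 and 11.33 with phos and 10.95 to 11.13 with DAC and ester (0.29, 95% interval -0.05 to 0.63). TKTL1, a relative of transketolase, stood at 12.75 and 12.76 with phos, 12.19 to 12.32 with DAC and ester and 4.70 to 5.54 with DMSO, and was not called (0.51, 0.18 to 0.83, adjusted p = 0.135). Leaving out either phos array ended both calls, and leaving out DAC replicate 1 or 2 or ester replicate 1 ended that of CTCFL.

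Among genes that colon cancers methylate, the intermediate filament gene VIM was higher with phos, at 11.64 and 11.67 against 11.15 to 11.29 (0.47 ± 0.07, limma adjusted p = 0.00163), with 11.67 to 11.81 at the lower doses and 7.83 to 8.10 with DMSO. THBS1, an inhibitor of vessel growth, was lower, at 7.52 and 7.43 against 7.88 to 8.20 (-0.52 ± 0.09), but its 7 probe sets ran from -0.74 to 0.00 and the one used without _s_at types gave -0.03. These were the only 2 calls among 36 members, against 1.45% of all genes, and the list's median was 0.04. VIM lost its call without phos replicate 1, and THBS1 without either phos array. The imprinted gene DLK1, an inhibitor of Notch signalling, was higher (0.50 ± 0.10), and was -0.06 on a probe set without the _x_at or _s_at mark. It was the only call among 20 imprinted genes, against 1.45% of all genes. The call for DLK1 too was lost without either phos array, or without DAC replicate 2.

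Several raised genes were higher with phos than on any DMSO, DAC or ester array, at either dose. TUBB2B, a neuronal beta-tubulin, stood at 8.54 and 8.79 with phos, 7.70 and 7.86 with DAC, 7.86 and 7.80 with ester, 6.62 to 7.44 at the lower doses and 4.50 to 4.95 with DMSO (0.86 ± 0.16, limma adjusted p = 0.00624). Its only probe set is of the _x_at type and can also match close tubulin relatives. KRT20, a keratin of the gut epithelium, stood at 9.55 and 9.56 with phos, 8.81 to 9.07 at the higher doses and 8.63 to 9.04 at the lower doses (0.61 ± 0.10). It was the only call among 20 colon epithelial markers, against 1.45% of all genes. The median of these markers was -0.05, with 9 differences above 0 and 11 below. NEFH, a neurofilament subunit, stood at 7.54 and 7.81 against 6.65 to 7.15 (0.80 ± 0.19), and LVRN, an aminopeptidase, at 7.52 and 7.84 against 6.88 to 7.12 (0.71 ± 0.13). LVRN and NEFH at the lower doses reached 7.49 and 7.46, close under the lower phos array. The pseudogene DPY19L2P2 stood at 8.14 and 8.19 with phos, 7.14 to 7.60 at the higher doses and 7.35 to 8.07 at the lower doses (0.79 ± 0.16); its probe set may share sequence with other DPY19L2 copies. KRTAP4-9, again measured by an _x_at probe set, stood at 6.70 and 6.88, 5.93 to 6.24 and 5.82 to 6.04 in the same order (0.64 ± 0.11). KRT20 lost its call without either phos array.

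Other raised genes lay near the lower doses of DAC and ester. NSG1, an endosomal protein of neurons, stood at 9.05 and 9.02 with phos, 8.15 to 8.37 at the higher doses and 8.79 to 9.25 at the lower doses (0.77 ± 0.17), but 0.13 on a probe set without the _x_at or _s_at mark. EZHIP, an inhibitor of the Polycomb methyltransferase, stood at 8.98 and 8.60 against 8.02 to 8.23 (0.68 ± 0.16), with 8.47 to 8.89 at the lower doses. PPP1R14A, an inhibitor of myosin phosphatase, stood at 7.65 and 7.79 against 6.92 to 7.16 (0.69 ± 0.15), with 7.22 to 7.66 at the lower doses. NFKBIZ, an atypical inhibitor of NF-kB, had the largest difference above 0 among called genes (0.93 ± 0.23, limma adjusted p = 0.0443) but its phos arrays lay far apart, at 6.94 and 5.99 against 5.28 to 5.72. DMSO ranged from 6.05 to 6.81 for NFKBIZ, so there the higher doses of DAC and ester were below DMSO. The mean of its 2 probe sets gave 0.56 and no call (adjusted p = 0.0563). All 12 of the most raised genes lost their calls without phos replicate 1, and all but NFKBIZ without phos replicate 2. All but TUBB2B, LIN28B, LVRN and KRTAP4-9 also did so without at least 1 of DAC replicate 1, DAC replicate 2 and ester replicate 1.

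**Figure D4:**
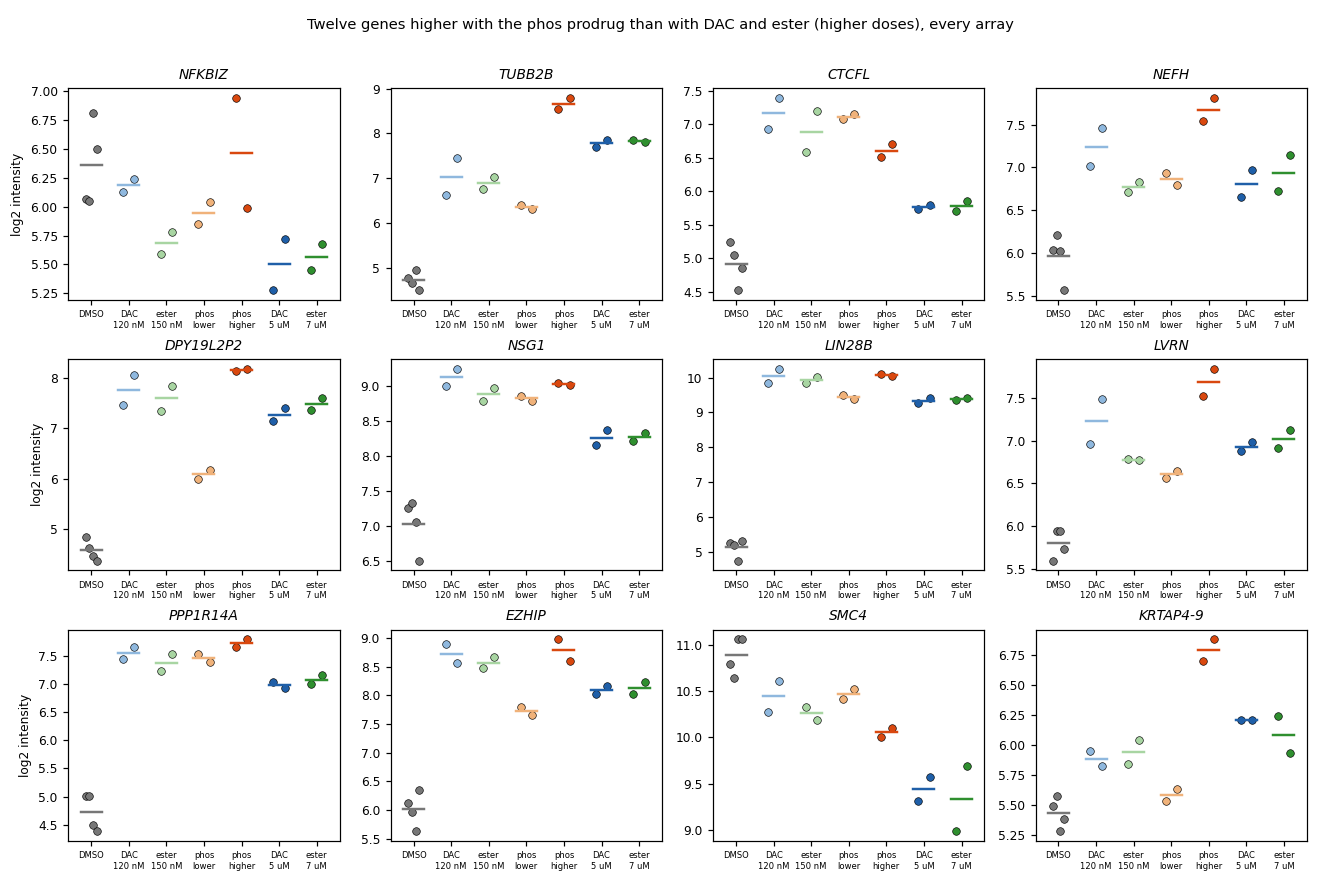
Level on each array (log2 intensity; points are arrays, lines are group means) of the 12 genes with the largest differences above 0 among those called, in the same groups. Both phos higher-dose arrays lie above the 4 DAC and ester higher-dose arrays in each panel, and most of these genes, though not NFKBIZ or SMC4, are also above DMSO.

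The median mitotic gene was below DMSO with the higher dose of all 3 drugs, and least so with phos. Of 60 G2/M and mitosis genes, 4 (6.67%) were higher with phos and 0 lower, against 0.354% and 1.1% of all genes. The list's median was 0.19, and 58 of the 60 differences were positive, against 9201 of the 18055 over all genes. The members were measured on the same arrays and are not separate observations. SMC4, a condensin subunit, stood at 10.01 and 10.10 with phos, 9.32 and 9.57 with DAC, 8.99 and 9.69 with ester and 10.64 to 11.06 with DMSO (0.66 ± 0.15, limma adjusted p = 0.0295). PTTG1 (securin) stood at 12.73 and 12.79 against 12.45 to 12.48 (0.29 ± 0.04, adjusted p = 0.00127), and CDC20, an activator of the anaphase-promoting complex, at 11.76 and 11.85 against 11.44 to 11.56 (0.31 ± 0.06). The checkpoint kinase BUB1B stood at 9.46 and 9.50 against 9.07 to 9.31 (0.34 ± 0.08). CENPF, a kinetochore protein, had a larger but uncalled difference (1.05, 95% interval 0.45 to 1.65, adjusted p = 0.0795): 8.81 and 8.95 with phos, 7.55 and 8.05 with DAC, and 7.05 and 8.68 with ester. The 2 ester arrays lay further apart there than either pair of the other drugs. The kinesin KIF15 was not called either (0.56, 0.22 to 0.90, adjusted p = 0.106). The count of called mitotic genes was 14 without ester replicate 2, 1 without DAC replicate 1, phos replicate 1 or ester replicate 1, and 0 without phos replicate 2.

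Among replication genes, none of 53 S phase genes was called (1.45% of all genes were, so 0 of 53 is near that share), with a median of 0.06 and differences from -0.21 to 0.35, and 47 of them were below DMSO with phos at the same threshold (13.7% of all genes were). The primase subunit PRIM1 stood at 10.14 and 10.33 with phos and 10.11 to 10.21 with DAC and ester (0.06, 95% interval -0.07 to 0.20). MCM10, which loads at origins, was not called (0.35, 0.10 to 0.59, limma adjusted p = 0.191). The maintenance methyltransferase DNMT1, which DAC traps, stood at 10.16 and 10.24 with phos, 9.78 and 10.02 with DAC and 9.73 and 10.13 with ester (0.29, 0.09 to 0.48, adjusted p = 0.162). DNMT3A, DNMT3B and UHRF1, which methylate DNA anew or guide DNMT1 to it, had intervals from 0.04 to 0.39, from -0.08 to 0.54 and from -0.13 to 0.36. None of 16 genes of the DNA methylation machinery was called, which is also near the share of 1.45% over all genes. The intervals leave room for differences of the size called elsewhere.

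The plot of list medians sets these groups side by side. For p53 targets the median level above the DMSO mean was 0.42 and 0.44 on the phos arrays, 0.58 and 0.64 with DAC, 0.57 and 0.66 with ester and 0.06 to 0.24 at the lower doses of DAC and ester. For G2/M genes it was -0.51 and -0.43 with phos, -0.71 and -0.70 with DAC, -0.75 and -0.60 with ester and -0.26 to -0.10 at the lower doses. In both lists the phos arrays lay between the lower and the higher doses of the other drugs. Germ cell genes differed in this: their median was 1.42 and 1.46 with phos, 1.07 to 1.27 at the higher doses and 0.56 to 0.67 at the lower doses, so the phos arrays were the highest of these. Cancer-testis antigens stood at 1.48 and 1.65 with phos, 0.99 to 1.21 at the higher doses and 1.52 to 1.82 at the lower doses. The lower dose of phos gave 0.16 and 0.14 for p53 targets and 0.43 and 0.44 for germ cell genes.

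**Figure D5:**
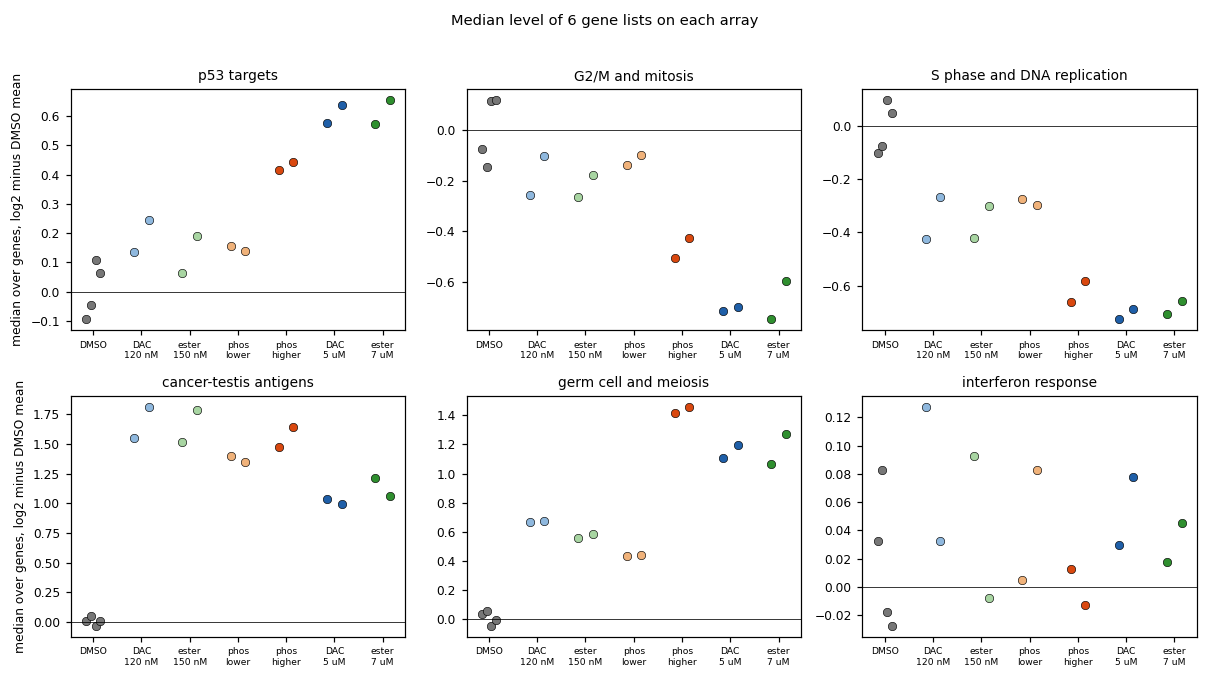
Median over the members of 6 gene lists of the log2 level minus the mean of the 4 DMSO arrays, for each array (points) in DMSO, the lower doses of DAC, ester and phos, and the higher doses of phos, DAC and ester. The phos higher-dose arrays lie between the lower and higher doses of DAC and ester for p53 and G2/M genes, above both for germ cell genes, and within the spread of the others for interferon genes, whose axis spans a much smaller range.

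Of the stress response genes, 2 of 41 were higher with phos and 0 lower, against 0.354% and 1.1% of all genes, with a median of 0.11. ASNS, asparagine synthetase, stood at 11.54 and 11.55 with phos, 10.96 to 11.11 with DAC and ester and 11.70 to 12.18 with DMSO (0.52 ± 0.09, limma adjusted p = 0.00558). Its regulator ATF4 stood at 11.60 and 11.73 against 11.15 to 11.39, with DMSO at 12.40 to 12.69 (0.38 ± 0.08). Both genes were thus below DMSO with every drug, least with phos. Both lost their calls without either phos array, and ATF4 also without DAC replicate 1 or ester replicate 1. Among 25 antioxidant genes the aldo-keto reductase AKR1B10 was lower, at 6.74 and 6.53 against 7.03 to 7.42 (-0.61 ± 0.07, adjusted p = 0.000191), and was called under every alternative. Single calls came from 23 hypoxia genes (ADM, a vasodilator peptide, -0.31 ± 0.06) and 17 histone genes. The histone call was H2AZ2, a variant (0.27 ± 0.07, limma adjusted p = 0.0496, or 0.12 on a probe set without the _x_at or _s_at mark). Over all genes 1.45% were called, so 1 call in lists as short as these and the antioxidant list says little. The histone gene H2BC12 was not called (0.01, 95% interval -0.26 to 0.28). ADM and H2AZ2 lost their calls without either phos array or DAC replicate 2, and H2AZ2 also without DAC replicate 1 or ester replicate 1.

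No member was called in the lists for nucleoside uptake and metabolism (33 genes, median -0.04), esterases and phosphatases (27, -0.04), interferon response (41, -0.01), DNA repair (45, 0.02), cholesterol and fatty acid synthesis (23, 0.04), apoptosis regulators (24, -0.04), ribosome biogenesis (33, -0.01), inflammatory cytokines and NF-kB (25, 0.08) and WNT targets (20, 0.02). Over all genes 1.45% were called, so 0 calls in lists of this size is near that share. Markers of other cell types gave 0 calls among 12 keratinocyte and 11 blood genes, which is near it too. They gave 1 of 13 fibroblast genes (ACTA2, smooth muscle actin, -0.56 ± 0.12) and 1 of 16 neuronal genes (NEFH). In lists this short, 1 call says little beside the share of 1.45% over all genes. In a bulk sample, fewer cells of a type and less RNA per cell cannot be told apart. ACTA2 stood at 8.95 and 9.06 with phos, 9.30 to 9.69 with DAC and ester and 7.41 to 7.80 with DMSO, while the collagen gene COL1A1 stood at 10.04 and 9.85 against 9.94 to 10.01. The call for ACTA2 was lost without either phos array, either DAC array or ester replicate 2, and with the mean of its 2 probe sets, which ran from -0.56 to 0.22 (-0.17, limma adjusted p = 0.655). Whether any change in cell makeup had a part in these calls was not tested.

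Each partner alone gave fewer calls. Phos differed from DAC in 163 genes (0.903%; 37 or 0.205% higher, 126 or 0.698% lower) and from ester in 90 (0.498%; 19 or 0.105% higher, 71 or 0.393% lower). Both comparisons use the same 2 phos arrays. TP53I3 was lower by a like amount in each, with DAC at 10.50 and 10.45 and ester at 10.41 and 10.44. DAC and ester differed from each other in 0 of 18055 genes by limma, with 192 at an unadjusted p under 0.05 and intervals of ±0.24 at the median, which does not show that they act alike. Those 192 are a smaller share of the 18055 than the 0.05 that a test gives on average when nothing differs. The test may thus be strict for these arrays, and why was not tested. The ester replicates were the least alike over all genes, with a mean absolute difference of 0.129 against 0.106 for DAC and 0.0977 for phos. GOLGA4, a golgin of the trans-Golgi, was far apart on the probe set used, at 6.90 and 8.84 with ester, 7.57 and 8.10 with DAC and 9 and 8.95 with phos. Without single arrays of the pair, the count against DAC was 42 and 16 (DAC replicates 1 and 2) and 22 and 45 (phos replicates 1 and 2). Against ester it was 18 without ester replicate 1, 103 without ester replicate 2 (69 higher with phos and 34 lower), and 5 and 36 without phos replicates 1 and 2.

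Set against the lower doses of DAC and ester, phos differed in 1290 genes (7.14%; 787 or 4.36% higher, 503 or 2.79% lower), and the higher doses of DAC and ester differed from their lower doses in 4344 (24.1%; 2542 or 14.1% higher, 1802 or 9.98% lower). The groups in these comparisons differ in size, with 2 phos arrays and 4 higher-dose arrays, so the counts are not on one footing. TAC1, a tachykinin precursor, was the gene most raised over the lower doses among those named for phos: 8.05 and 7.65 with phos, 7.90 to 8.05 with DAC and ester, 4.30 to 5.00 at the lower doses and 3.52 to 3.91 with DMSO. CDO1, cysteine dioxygenase, stood at 10.63 and 10.73, 10.25 to 10.44, 8.21 to 9.03 and 5.98 to 6.13 in the same order of groups. For these genes phos was far from the lower doses and not called against the higher ones (TAC1 -0.14, 95% interval -0.47 to 0.19; CDO1 0.30, -0.01 to 0.61). SKP2, a ubiquitin ligase subunit that degrades cell cycle inhibitors, was among the most lowered, at 9.14 and 9.24 with phos, 9.20 to 9.30 with DAC and ester and 9.83 to 10.23 at the lower doses. Leaving out phos replicate 1 or 2 lowered the count of phos against the lower doses to 471 and 511.

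The called genes were then followed on arrays whose means did not enter the comparison, a step chosen after their values were seen. Those arrays had entered the shared spread, the filter for low levels and the choice of probe set. The counts on them are therefore a description and not an independent check. Between the lower doses of DAC and ester and DMSO 4991 genes (27.6%) differed, and 44 of the 64 genes higher with phos were raised (68.8%, against 14.3% of all genes) and 7 were lowered. Of the 198 genes lower with phos, 36 were raised (18.2%) and 78 lowered (39.4%, against 13.3% of all genes). The set higher with phos thus held many genes that low doses raise, such as LIN28B, GCNA, VIM and KRT20, and the set lower with phos held more genes that low doses lower than raise, such as BTC and ZBED2. Leaving out each of the 8 arrays in turn gave 43 to 45 of the 64 raised and 67 to 85 of the 198 lowered.

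At the lower doses, phos against DAC and ester gave another order for the 64 genes. Over all genes 121 (0.67%) differed there. None of the 64 was higher with phos (0.072% of all genes) and 11 were lower (17.2%, against 0.598% of all genes), with a median of -0.14. VIM, for example, stood at 11.34 and 11.33 with the lower dose of phos and 11.67 to 11.81 with the lower doses of DAC and ester, and TUBB2B at 6.40 and 6.31 against 6.62 to 7.44. The 198 genes gave 2 higher (1.01%, against 0.072% of all genes) and 3 lower (1.52%, against 0.598%), with a median of 0.02. Counts this small say little. The count of 11 fell to 2 and 1 without replicate 1 and 2 of the lower dose of phos, whereas the median stayed between -0.15 and -0.12 when any of the 6 arrays was left out. In the median of the 64 genes above DMSO the lower dose of phos gave 0.32 and 0.36, the lower doses of DAC and ester 0.53 to 0.66, the higher dose of phos 0.63 and 0.71, and the higher doses of DAC and ester 0.21 to 0.30. For the 198 genes these values were -0.07 and -0.09, -0.14 to -0.04, 0.08 and 0.13, and 0.47 to 0.58. The last 2 of each series come from the arrays whose means chose the genes and are given as a description only.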

How the data were processed

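RNA of HCT116 cells was measured on 24 arrays, of which the 16 with DMSO, DAC, phos or ester are described. The submitters' processing notes name RMA and Affymetrix Expression Console 1.1 as the authors' steps, and the values are deposited as linear intensities for 54675 probe sets and turned into log2 here. The sources used here name no genome build, the table holds no detection calls, and the number of arrays limits the precision. Groups follow the sample titles. The probe table gave 1 symbol for 41091 probe sets, several for 1801 and none for 11721; by gene number 41037 matched RefSeq GRCh38.p14. Probe sets reaching log2 5 on at least 2 arrays were kept (35146), and each of 18055 genes took the one with the highest mean.

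Group means of all 24 arrays were estimated together in limma 3.58.1 (R 4.3.3; eBayes with intensity trend, 13 residual and 6.14 prior degrees of freedom), and DAC and ester were weighted equally. A gene counted as called when its 2-sided p, adjusted by Benjamini and Hochberg over all genes, was under 0.05. An exact permutation test of 2 against 4 arrays cannot go below p = 0.0667, so none was used. Errors after ± are SEs of limma. Named genes are, of the called genes whose arrays do not overlap, the 12 highest and 12 lowest, up to 3 called members of each list, the 3 highest and lowest genes of the other comparisons, and 15 set genes such as DNMT1; KLK6, KLK7, KLK8, KLK10, the remaining called p53 targets and PTTG1, and members with no call given for contrast, were added after their values were seen. The comparison, the 26 gene lists (859 entries) and the rules were chosen with earlier results of these data known. Comparisons on other arrays were added after seeing the data. The fit was tested on simulated data. Promoter composition was not compared with that of all genes: 78.3% of the genes tested had a promoter window, under the 80% needed, so that check is void. Figures were drawn with matplotlib 3.10.9 and pandas 2.3.3 (Python 3.11.15).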

Additional observations from a re-analysis of the deposited data

Results flagged for a closer look

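Single arrays stood apart from the other 3 of their group for 9 of 148 groups of 4 checked over 74 genes, and chance gives about 1 in 20. Among the 4 higher-dose DAC and ester arrays, ester replicate 2 was low for KRTAP4-9 (5.93, others 6.21 to 6.24) and high for BUB1B (9.31, others 9.07 to 9.09) and VIM (11.29, others 11.15 to 11.16). Ester replicate 1 was high for MAEL (10.96, others 10.75 to 10.78) and low for ACTA2 (9.30, others 9.63 to 9.69). DAC replicate 2 was high for SNAI2 (5.78, others 5.39 to 5.45) and FUCA1 (10.82, others 10.72 to 10.73), and DAC replicate 1 for the potassium channel gene KCNV2 (8.74, others 8.37 to 8.43). In DMSO, replicate 4 was low for ZBED2 (7.43, others 7.62 to 7.64).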

How the results depend on the processing

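Counts of calls moved with the model and with single arrays, and the cause was not tested. The genes called for phos against DAC and ester (262), against DAC (163) and against ester (90) became 164, 102 and 53 without _x_at and _s_at probe sets, which leaves fewer genes to test, 145, 83 and 47 after centring each array on its median, 1134, 896 and 323 with array weights, and 484, 271 and 164 with the beta-actin 3' minus 5' signal as a covariate. Fitting only the groups compared gave 805 and 958 against both and against DAC, and treating DAC and ester as 1 group in 6 arrays gave 1038. Against the lower doses the count of 1290 became 386 with only those groups. With the replicate number as a block, the counts were 570, 328, 183 and 2012. The numbers link no labelled culture, and deviations of same-numbered arrays correlated at 0.16 (phos and DAC), 0.137 (phos and ester) and 0.42 (DAC and ester). Same-numbered DAC and ester arrays correlated at 0.9981 and 0.9978 over genes, above the DAC replicates (0.9975) and the ester replicates (0.9959). A shared culture or batch is thus possible, but 2 numbers per group are too few to settle pairing. The main fit took the samples to share only a number. TKTL1 was called with the block (0.51, limma adjusted p = 0.0303). Leaving out 1 array gave 20 to 353, 16 to 45, 5 to 103 and 471 to 1824 for the same 4 counts, where a lone phos array is assumed to vary like the other groups. DAC against ester stayed at 0 calls by limma under every alternative run. The higher against the lower doses of DAC and ester stayed within 1.5 times of 4344. The 11 p53 targets became 21 with only the groups compared and 18 with array weights, the 4 mitotic genes 15 and 23, 12 with repeated quantile normalization and 1 without _x_at and _s_at probe sets, and the 11 genes lower at the lower dose of phos 2 and 38. DLK1 was the only called gene followed whose difference turned (-0.063 without _x_at and _s_at probe sets). Of 55 called genes followed, 10 were called under every alternative run. With 2 phos arrays, no detection calls and phos dose labels that disagree, small or dim differences could not be settled.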
